A study of Mus musculus with 5 samples.

Results

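The bone morphogenetic protein (BMP) pathway was followed in fibroblast lines through 10 genes, chosen by symbol: Bmp1, Bmp4, Grem1, Bmpr1a, Bmpr2, Smad6, Smad7, Id1, Id2 and Id3. Of these 10, 9 had values among the 14454 gene symbols of each table, and Bmp4 was not analysed here. The cells were NIH/3T3, an immortalised line of mouse embryonic fibroblasts, each with an integrated transgene for EGFP-tagged human H2A, a core histone. In 1 line (wt) the tagged histone was wild type. In the other 4 lines, numbered 3, 6, 15 and 18, it carried the T120D substitution, in which aspartate replaces a threonine near the end of the histone. All 5 lines were grown in DMEM with 10% fetal calf serum and 10 µg/ml gentamicin, with no BMP or other agent named, so signals in serum were part of the culture of every line. The labels give neither the promoter of the transgene nor whether a line is 1 clone, and they name no change to the mouse histone genes.

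BMPs are secreted dimers that bind pairs of type I receptors, such as Bmpr1a, and type II receptors, such as Bmpr2. The activated receptor phosphorylates Smad1, Smad5 and Smad9, which enter the nucleus with Smad4. Id1, Id2 and Id3 are among the best known genes induced in this way. Their products hold E proteins in complexes that cannot bind DNA. Smad6 and Smad7, the inhibitory Smads, are also induced and act back on the pathway: Smad6 chiefly on BMP signals, Smad7 on both BMP and TGF-beta signals. Grem1 encodes gremlin, a secreted antagonist that binds BMP ligands. Bmp1 is named with the family but encodes a metalloproteinase that trims procollagens and cleaves the antagonist chordin.

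Levels are in RPKM, read counts scaled to transcript length and sequencing depth, as the authors deposited them. The estimated depth was 2522500 to 2720000 reads a line, so that 1 RPKM of a transcript of 2000 bases stands for 5.04 to 5.44 reads. All 8 fibroblast markers examined had at least 7.16 RPKM in every line, and the highest value of any osteoblast, chondrocyte, adipocyte, muscle, epithelial, endothelial or macrophage marker with values was 1.46 RPKM, of Cd68. Some of those lists were thin: 2 of 5 osteoblast markers and 1 of 4 epithelial markers had values. Between a T120D line and the wt line 575 to 698 of the tested genes were at least 2-fold apart in RPKM + 1. Between pairs of T120D lines 101 to 142 were. At low levels this counts fewer genes than a ratio of RPKM would.

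Of the members, 8 had a mean of at least 1 RPKM and were tested. Smad7 was higher in T120D by limma (adjusted p under 0.05), and the other 7 were not called. Over all 10052 tested genes 13.1% were called, 7.65% higher and 5.45% lower, so the 1 call among 8 members is near the background. At an unadjusted p under 0.05, 1 member was higher (Smad7) and 3 were lower (Id2, Id3 and Smad6), where 15.2% of all tested genes were higher and 13.4% lower. The wt line lay outside the range of the T120D lines for 5 of the 8, above it for Bmp1, Id2, Id3 and Smad6 and below it for Smad7. Over all tested genes 63.4% had the wt line outside that range, with 32.3% above and 31.1% below, so this share, too, is near the background. The median log2 difference of the 8 members was -0.10, against -0.018 over all tested genes. With 1 wt line, each test sets its distance against the spread of the T120D lines, which may be technical, and an exact permutation of 1 line against 4 cannot give a p below 0.2.

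**Figure D1:**
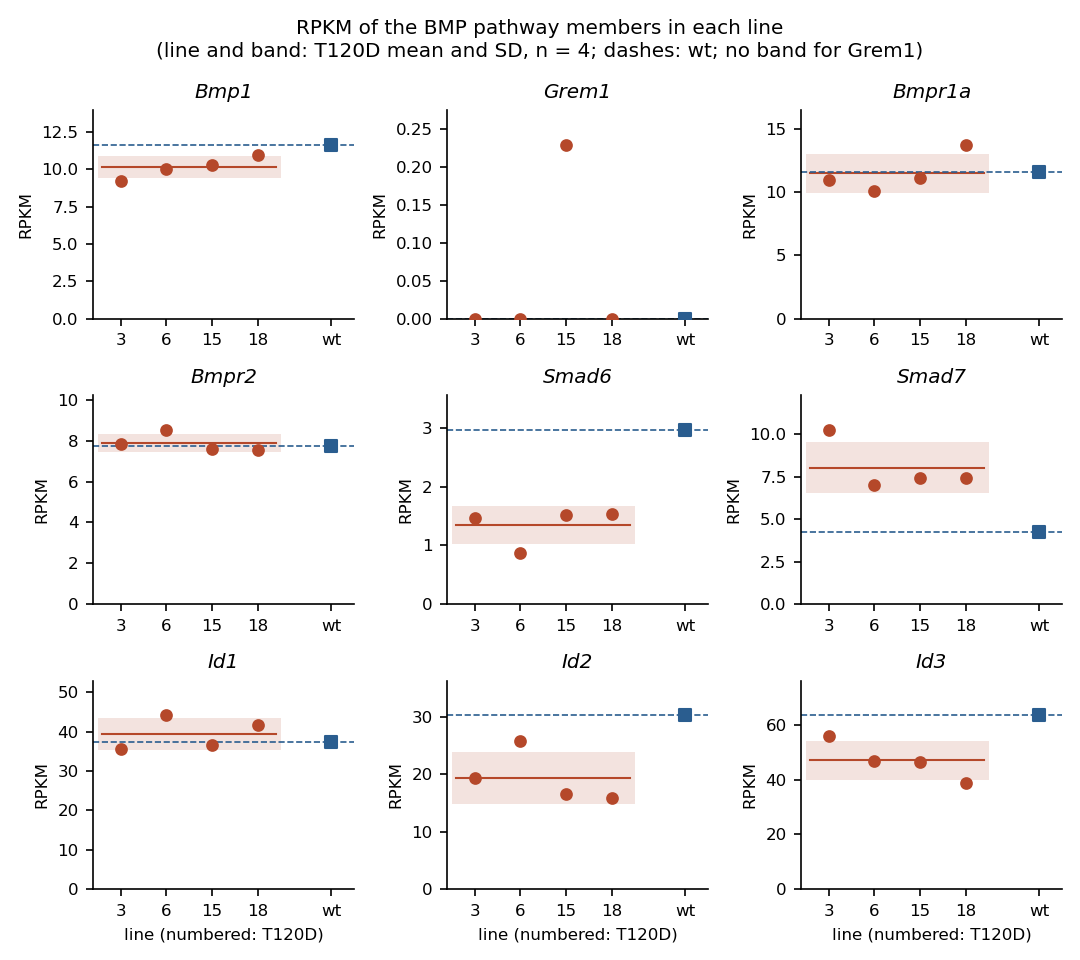
RPKM of the 9 members with values in each line (red points: T120D lines 3, 6, 15 and 18; blue square and dashed line: wt; red line and band: T120D mean and SD, n = 4, not drawn for Grem1; each axis starts at 0). Smad7 lies above wt in all 4 T120D lines, Bmp1, Smad6, Id2 and Id3 lie below it in all 4, and wt falls among the T120D lines for Bmpr1a, Bmpr2 and Id1.

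Ranked by RPKM, which is per length of transcript, the Id genes led the members in every group. In T120D the order of mean levels was Id3 (47.01 RPKM), Id1 (39.5), Id2 (19.4), Bmpr1a (11.5), Bmp1 (10.1), Smad7 (8.03), Bmpr2 (7.88), Smad6 (1.35) and Grem1. Neighbours whose ranges over the 4 lines overlapped were Id3 and Id1, Bmpr1a and Bmp1, Bmp1 and Smad7, and Smad7 and Bmpr2. The wt line had the order Id3, Id1, Id2, Bmp1, Bmpr1a, Bmpr2, Smad7, Smad6 and Grem1. By mean level Smad7 thus stood just above Bmpr2 in T120D, and it stood just below Bmpr2 in wt. Among the T120D lines only line 3 had Smad7 above Bmpr2 (10.2 against 7.85 RPKM). In lines 6, 15 and 18 Smad7 lay below Bmpr2 and next to Smad6, as in wt. There Smad7 was at 6.98, 7.44 and 7.44 RPKM, and Bmpr2 at 8.53, 7.59 and 7.57 RPKM.

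Few ligand genes could be followed. Of 14 BMP and GDF ligand genes in a wider list of the pathway, 3 had values (Bmp3, Bmp8b and Gdf5), and none of these reached a mean of 1 RPKM, so ligands were not tested. Gdf5, a ligand of joint and cartilage development and the most abundant of the 3, was at 0.342, 0.957, 0.487 and 0.656 RPKM in lines 3, 6, 15 and 18 and at 0.158 RPKM in wt, levels of few reads.

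Bmp1, the proteinase, was at 9.24, 10.02, 10.3 and 11.0 RPKM in lines 3, 6, 15 and 18 and at 11.6 RPKM in wt. All 4 T120D lines lay below wt, line 18 by the least. The mean was 10.1 ± 0.727 RPKM (SD, n = 4), and the log2 difference of -0.18 (SE 0.16, 95% confidence interval -0.53 to 0.17) was not called (limma adjusted p = 0.482). Pcolce, which encodes a secreted protein that enhances the procollagen cleavage by Bmp1, was the most abundant gene of its role. It was at 70.4, 68.9, 79.1 and 83.1 RPKM in the same lines against 107 RPKM in wt. This gene was 1.42-fold lower in T120D (log2 difference -0.50, SE 0.12, limma adjusted p = 0.0295), a call that ended without line 3 (limma adjusted p = 0.0638), with genes of low expression kept in the fit (0.102) and without the intensity trend (0.115). Pcolce overlaps Fbxo24 in the GRCm38 annotation, and strand treatment in the counting is not given in the sources used here. Fbxo24 was at 0 to 0.183 RPKM over the 5 lines.

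Gremlin RNA was at or near 0 in every line. Grem1 was listed at 0 in lines 3, 6 and 18 and in wt, and at 0.229 RPKM in line 15. At the estimated depth and longest coding transcript, 3 reads in line 15 would be 0.272 RPKM, so its value stands for fewer. Over the lines, a level of 3 expected reads would be 0.266 to 0.287 RPKM. With counting error only, such a level would rarely give a count of 0, but could. In bulk RNA, fewer cells that express a gene and less RNA per cell cannot be told apart.

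For both receptor genes the wt value fell among those of the T120D lines. Bmpr1a, the type I receptor, was at 10.97, 10.1, 11.1 and 13.7 RPKM in lines 3, 6, 15 and 18 and at 11.6 RPKM in wt. Line 18 was above wt and the other 3 were below. Its mean of 11.5 ± 1.56 RPKM (SD, n = 4) gave a log2 difference of -0.020 (95% confidence interval -0.42 to 0.38, limma adjusted p = 0.954). Bmpr2, the type II receptor, was at 7.85, 8.53, 7.59 and 7.57 RPKM against 7.74 RPKM in wt, with lines 3 and 6 above wt and lines 15 and 18 below. Its log2 difference was 0.022 (95% confidence interval -0.34 to 0.39, limma adjusted p = 0.944). These intervals leave room for differences of up to about 0.42 in size on the log2 scale. Bmpr2 varied least among the tested members over the T120D lines, with an SD of 5.68% of its mean, and Smad6 and Id2 most, with 23.7% and 23.6%. In those lines Bmpr2 stands for about 255 to 297 reads, Id2 for 82 to 138 and Smad6 for 7 to 12. Counting error was not set apart from these spreads.

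Among the inhibitory Smads, Smad7 lay above wt and Smad6 below. Smad7 was at 10.2, 6.98, 7.44 and 7.44 RPKM in lines 3, 6, 15 and 18 and at 4.21 RPKM in wt. Line 3 was the highest, the other 3 lay close together, and the groups did not overlap. Line 3 had 2.43 times the wt level, line 6 had 1.66 times, and lines 15 and 18 each had 1.77 times. With a mean of 8.03 ± 1.49 RPKM (SD, n = 4), 1.91-fold above wt, Smad7 had a log2 difference of 0.78 (SE 0.21, 95% confidence interval 0.29 to 1.26, limma adjusted p = 0.0449). The call was near the threshold. It ended without line 3, line 15 or line 18 (limma adjusted p = 0.0597, 0.0639 and 0.0688), without the filter on low values (0.126) and without the intensity trend (0.0749), while the difference stayed between 0.67 and 0.90 over the 10 alternatives.

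Smad6 was at 1.46, 0.870, 1.52 and 1.53 RPKM in lines 3, 6, 15 and 18 and at 2.96 RPKM in wt. Line 6 was the lowest, and no T120D line reached the wt level. At the length of the longest coding transcript these levels stand for about 11, 7, 12 and 12 reads against 24 reads in wt, where Smad7 stands for 81 to 111 reads against 49. The mean of 1.35 ± 0.319 RPKM (SD, n = 4) was 2.20-fold below wt. The log2 difference of -0.77 (SE 0.28, 95% confidence interval -1.39 to -0.14) was not called (limma adjusted p = 0.104).

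Set against each other within a line, which removes the scaling between lines, Smad7 had 6.99, 8.03, 4.91 and 4.85 times the RPKM of Smad6 in lines 3, 6, 15 and 18 and 1.42 times in wt. The T120D ratios had a mean of 6.19 ± 1.58 (SD, n = 4), and the lowest was 4.85. This ratio was chosen after the values were seen, was not tested, and rests on the few reads of Smad6.

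**Figure D2:**
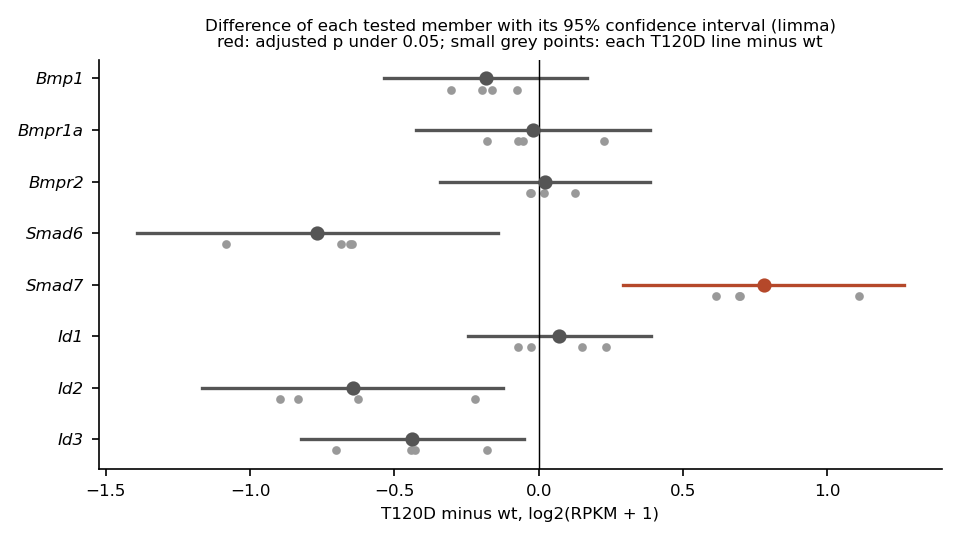
Difference between T120D and wt on the log2(RPKM + 1) scale for the 8 tested members (large points: mean of the 4 T120D lines minus wt; bars: 95% confidence interval from limma, before adjustment; small grey points: each T120D line minus wt; red: adjusted p under 0.05). Smad7 at 0.78 is the called member, the bars of Smad6, Id2 and Id3 lie below 0, and those of Bmp1, Bmpr1a, Bmpr2 and Id1 cross 0.

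The Id genes, which are among those known to be induced by BMPs, were not called. At an unadjusted p under 0.05, 2 of the 4 tested Id genes were lower in T120D, against 13.4% of all tested genes, and with 4 genes nothing is read from that count. Id1 was at 35.6, 44.2, 36.7 and 41.7 RPKM in lines 3, 6, 15 and 18 and at 37.4 RPKM in wt. Lines 6 and 18 were above wt, and lines 3 and 15 below. Its mean was 39.5 ± 4.07 RPKM (SD, n = 4), with a log2 difference of 0.071 (95% confidence interval -0.25 to 0.39, limma adjusted p = 0.782).

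Id2 was at 19.3, 25.8, 16.5 and 15.8 RPKM in lines 3, 6, 15 and 18 and at 30.3 RPKM in wt. All 4 T120D lines lay below wt, and line 6 was nearest to it. The mean of 19.4 ± 4.56 RPKM (SD, n = 4) was 1.56-fold below wt, a log2 difference of -0.64 (SE 0.23, 95% confidence interval -1.17 to -0.12) that was not called (limma adjusted p = 0.102). Without line 6 the difference was -0.78 and was called (limma adjusted p = 0.0126).

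Id3 was the most abundant member, at 56.02, 46.9, 46.5 and 38.6 RPKM in lines 3, 6, 15 and 18 and at 63.5 RPKM in wt. Here, too, all 4 lines lay below wt, line 3 by the least and line 18 by the most. The mean was 47.01 ± 7.11 RPKM (SD, n = 4), 1.35-fold below wt, with a log2 difference of -0.44 (SE 0.17, 95% confidence interval -0.82 to -0.052, limma adjusted p = 0.128). The fourth gene of the family, Id4, was at 0.905 to 3.56 RPKM in T120D and at 2.65 RPKM in wt and was not called (limma adjusted p = 0.507).

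The Id genes were also set against their sum in each line. Id1, Id2 and Id3 together came to 110.9, 116.9, 99.8 and 96.1 RPKM in lines 3, 6, 15 and 18 and to 131.2 RPKM in wt. Of that sum, Id1 made up 32.1%, 37.8%, 36.8% and 43.3% in the T120D lines and 28.5% in wt. Id2 made up 17.4%, 22.1%, 16.6% and 16.5% against 23.1%, and Id3 made up 40.1% to 50.5% against 48.4%. The wt line had the lowest share of Id1 and the highest of Id2, the latter close to that of line 6, while its share of Id3 fell among those of the T120D lines. The 3 shares add to a fixed total and were not tested.

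**Figure D3:**
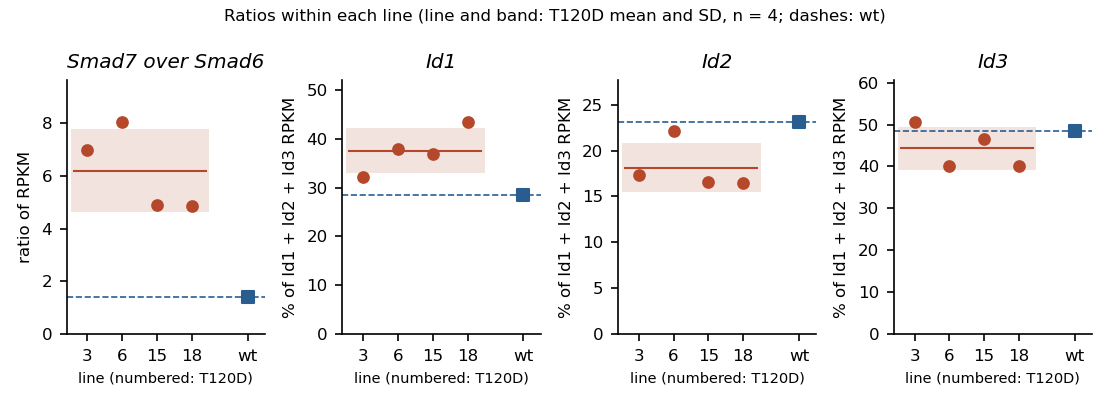
Ratio of Smad7 to Smad6 RPKM and the share of Id1, Id2 and Id3 in their summed RPKM, in each line (red points: T120D lines; blue square and dashed line: wt; red line and band: T120D mean and SD, n = 4; axes start at 0). The ratio is 4.85 to 8.03 in T120D and 1.42 in wt, and the Id1 share is 32.1% to 43.3% in T120D and 28.5% in wt.

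Promoters are shown for the members whose RNA lay below wt in all 4 T120D lines, to compare the sequence before their start sites. RefSeq promoters of GRCm38.p6, 250 bases before to 50 after the start, were matched for 7 of the 10 members, and not for Bmp1, Id1 and Smad7. The letters searched on both strands were GGCGCC and GGAGCC, GC-rich forms known from BMP response elements, GTCTAGAC, the palindromic Smad box, and GTCTG, which holds the core of that box. Capitals mark the matches, and no match overlaps another. The 250 bases before the start are printed 5′ to 3′ on the strand of the gene, and for Smad6 the 254 bases up to the end of a match that spans the start.
Smad6, chr9:64022056-64022309, minus strand: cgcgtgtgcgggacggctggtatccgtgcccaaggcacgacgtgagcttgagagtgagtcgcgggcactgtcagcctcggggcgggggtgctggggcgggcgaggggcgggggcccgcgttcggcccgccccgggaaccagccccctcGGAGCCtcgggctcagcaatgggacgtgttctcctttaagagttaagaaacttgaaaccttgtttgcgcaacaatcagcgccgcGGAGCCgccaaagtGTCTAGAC
Id2, chr12:25096093-25096342, minus strand: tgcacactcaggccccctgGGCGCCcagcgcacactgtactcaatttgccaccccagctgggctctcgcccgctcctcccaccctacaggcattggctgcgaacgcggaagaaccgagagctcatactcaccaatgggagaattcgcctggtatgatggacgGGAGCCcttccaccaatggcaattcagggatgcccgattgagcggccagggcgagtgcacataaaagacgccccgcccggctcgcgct
Id3, chr4:136143572-136143821, plus strand: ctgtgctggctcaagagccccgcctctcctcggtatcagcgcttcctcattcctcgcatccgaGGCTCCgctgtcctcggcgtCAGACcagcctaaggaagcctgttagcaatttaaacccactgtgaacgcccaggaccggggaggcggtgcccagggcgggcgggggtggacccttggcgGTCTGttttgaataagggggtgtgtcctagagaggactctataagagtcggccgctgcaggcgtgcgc

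Smad6 had GTCTAGAC across its annotated start, beginning 4 bases before it, and GGAGCC at 102 and 18 bases before it. GTCTAGAC was found in 70 of 32851 RefSeq promoter windows of the same length (0.213%). Id2 had GGCGCC, found in 11.9% of windows, at 231 bases before the start, and GGAGCC, found in 30.8%, at 88 bases. Id3 had GGAGCC at 187 bases and GTCTG at 167 and 68 bases before the start, and GTCTG was found in 49.6% of windows. GGCGCC was also present in the windows of Bmpr1a and Bmpr2, for which wt fell among the T120D lines. The window of Grem1, which was too low to be tested, held GGCGCC as well. These matches describe letters in a window of another build than the mm9 of the submitters' processing notes. They show no binding.

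The wider pathway was read from a list of 78 genes by role, the members included. Values were found for 55 of them, and 43 passed the filter on low values and were tested. Of the 43, 4 were higher and 3 lower in T120D, 16.3% against 13.1% of all tested genes, with a median log2 difference of -0.19 against -0.018 over all. The wt line lay above all T120D lines for 23 of the 43 and below all of them for 11, against 32.3% and 31.1% of all tested genes. With genes of low expression kept in the fit, 3 were higher and 1 lower, where 6.86% of all genes in that fit were called.

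Secreted antagonists and binding proteins held 3 of the 7 calls, from 8 tested genes (37.5%, against 13.1% of all tested genes). With 8 genes nothing is read from that count. When genes of low expression were kept in the fit, 1 of 11 was higher and 0 lower, where 6.86% of all genes in that fit were called. In the main fit Crim1 and Fst were higher. Crim1, which encodes a membrane protein that binds BMPs, was at 29.1, 24.5, 26.4 and 26.1 RPKM in lines 3, 6, 15 and 18 and at 5.75 RPKM in wt. Its log2 difference was 2.02 (SE 0.14, limma adjusted p = 8.34e-05). Crim1 overlaps Fez2 in the annotation, which was at 35.8 to 42.2 RPKM in T120D and 17.7 RPKM in wt, and whether reads were split between them was not tested. Fst, which encodes follistatin, an antagonist chiefly of activins, was at 5.58, 7.58, 4.02 and 5.68 RPKM against 1.26 RPKM. The log2 difference of 1.55 had an SE of 0.27 (limma adjusted p = 0.00792), and its call ended with genes of low expression kept in the fit (0.0673). Fstl1, which encodes a follistatin-like glycoprotein of mesenchymal cells, was the most abundant of this role and was lower, at 95.4, 102.3, 106.2 and 101 RPKM against 132.7 RPKM (log2 difference -0.39, SE 0.096, limma adjusted p = 0.0297). That call ended without line 3 (0.066) or line 18 (0.0582), with genes of low expression kept in the fit (0.0585) and without the intensity trend (0.146).

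Of 7 tested receptors and co-receptors, Rgmb was higher. This co-receptor gene of the repulsive guidance family was at 15.9, 14.9, 16.4 and 15.1 RPKM in lines 3, 6, 15 and 18 and at 6.82 RPKM in wt, 2.28-fold apart (log2 difference 1.08, SE 0.14, limma adjusted p = 0.00169). Its relative Rgma, the most abundant gene of the role, was at 18.4 ± 1.54 RPKM (SD, n = 4) against 21.9 RPKM and was not called (limma adjusted p = 0.313). Bambi, a pseudoreceptor gene that dampens BMP and TGF-beta signals, was at 1.33, 1.32, 1.27 and 1.43 RPKM in lines 3, 6, 15 and 18 and at 0.364 RPKM in wt, levels of few reads. Its log2 difference of 0.78 (SE 0.26) was not called (limma adjusted p = 0.0868), but was called with genes of low expression kept in the fit (0.0294) and without the intensity trend (0.0270), which gave 2 higher genes of this role. The 3 tested Smads that carry the signal were not called, with log2 differences from -0.49 for Smad5 to 0.45 for Smad4. Smad4, the shared partner and the most abundant of them, was at 14.8, 11.8, 18.1 and 15.7 RPKM against 10.6 RPKM in wt (limma adjusted p = 0.181).

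Of 10 tested inhibitors of the Smad signal, Smad7 was higher and Ctdsp2 lower. Ctdsp2 encodes a small phosphatase known to act on Smads, and was at 35.6, 32.9, 36.8 and 37.2 RPKM in lines 3, 6, 15 and 18 and at 71.6 RPKM in wt. All 4 T120D lines lay close together at a 2.01-fold lower mean (log2 difference -0.99, SE 0.11, limma adjusted p = 0.00103). The 3 genes of E proteins, the partners of Id proteins, lay below wt in every T120D line, as did 32.3% of all tested genes, and were not called, with log2 differences of -0.21 for Tcf3, -0.36 for Tcf12 and -0.47 for Tcf4. Tcf3, the most abundant, was at 13.3 ± 1.30 RPKM (SD, n = 4) against 15.5 RPKM (limma adjusted p = 0.425). Of the 10 other genes known to be induced by BMPs, 5 were tested and not called, Junb, which overlaps Prdx2 in the annotation, being the most abundant, at 20.8 ± 0.968 RPKM against 22.9 RPKM (limma adjusted p = 0.527).

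**Figure D4:**
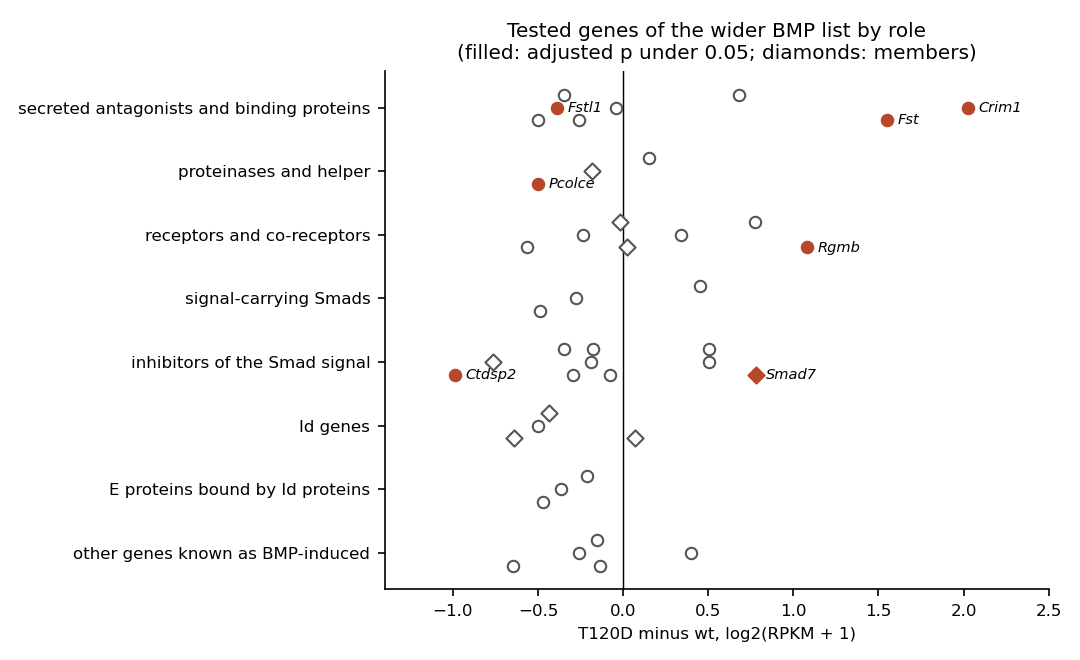
Difference between T120D and wt on the log2(RPKM + 1) scale for the 43 tested genes of the wider list, by role (each point is 1 gene; filled: limma adjusted p under 0.05; diamonds: members). The 7 called genes are named, from Ctdsp2 at -0.99 to Crim1 at 2.02, and the Id genes, E proteins and other BMP-induced genes hold open points.

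The tested genes most like Smad7 over the 5 lines, by the Euclidean distance between log2(RPKM + 1) values centred on each gene's mean, were Thoc6 (distance 0.071), Tmem97 (0.12) and Enoph1 (0.13). Those most like Smad6 were Ccdc61 (0.11), Tmem8b (0.13) and Lrrc45 (0.14).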

How the data were processed

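RNA-seq was deposited as 1 table per line, with RPKM values that the authors computed. Per the submitters' processing notes, the software was Partek and the genome build mm9. Per the labels, libraries came from total RNA through a stranded TruSeq mRNA kit. Aligner, annotation and strand setting: not given in the sources used here. RPKM tables hold no counts. Depth was estimated from 1348 genes with a single coding transcript in GENCODE (GRCm38), as the smallest depth at which low values came near whole reads: 48.8% to 54.5% of values lay within 0.05 reads of a whole number. Fractions remained, so no count model was used.

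Values were analysed as log2(RPKM + 1), a scale that understates changes of low genes. The 10052 genes that averaged 1 RPKM or more over the 5 lines were fitted with limma 3.58.1 in R 4.3.3 (intensity trend, two-sided, 3 residual and 5.99 prior degrees of freedom), all 5 lines, with Benjamini-Hochberg adjustment over all tested genes and calls at an adjusted p under 0.05. The wt line had no replicate and was assumed to vary like T120D. The labels do not say whether lines are separate clones or cultures, so p-values measure only the spread between these lines. The fit and the depth estimate were tested on simulated data. In the simulation for the fit the wt line was given the spread of the T120D lines. It therefore could not examine the assumption that wt varies like T120D. Fold values are ratios of RPKM, except in the counts of genes at least 2-fold apart, which used RPKM + 1.

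The members and lists were chosen with earlier results of these data known. Named were all members, the called genes of the wider list, the most abundant gene of each role, and the 3 nearest genes of the members with the largest difference each way; Id4, Bambi, Smad5, Tcf4 and Tcf12 were named after their values were seen. Alternatives were another pseudocount, filter, variance model or scaling, and leaving out each T120D line. A gene first placed on the wider list is not reported here, and the list was counted without it.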

Additional observations from a re-analysis of the deposited data

Results flagged for a closer look

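In the 18 tested genes taken by the naming rule, the 4 T120D lines were searched for a line far from the others, by the gap to its neighbour as a share of the whole range; chance flags about 1 in 20 such groups. Smad6 was lowest in line 6, with a gap of 0.896 of the range (0.870 RPKM against 1.46 to 1.53 RPKM in the other T120D lines). These levels stand for about 7 reads in line 6 against 11, 12 and 12 reads in lines 3, 15 and 18. At so few reads counting error was not set apart from a difference of the line. Smad7 was highest in line 3, with a gap of 0.859 of the range (10.2 RPKM against 6.98 to 7.44 RPKM).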

How the results depend on the processing

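With no filter on low values, over all genes 434 were higher and 514 lower (45.8% of the 948 calls higher, against 58.4% with the filter), the members had 0 calls higher, the wider list had 3 higher and 1 lower, and Smad7 kept its log2 difference of 0.78 without a call (limma adjusted p = 0.126). That fit also held more genes, and the cause of the change was not tested. By limma without the intensity trend, 455 genes were higher and 361 lower over all genes, the members had 0 calls higher and the wider list 1 lower, and Smad7 at 0.78 was not called (0.0749); the cause was not tested. At a mean of at least 5 RPKM, where Smad6 is not tested, the median of the members was -0.020. Bmpr1a was at 0.0018 under median scaling and 0.033 without line 6, Bmpr2 at -0.012 without line 6, and Id1 at -0.011 under quantile normalization, each against a main value of the opposite sign near 0. Leaving out each T120D line in turn gave 0 to 1 members higher and 0 to 1 lower, 1 to 4 genes of the wider list lower, a median of the members of -0.16 to -0.073, and log2 differences of 0.67 to 0.83 for Smad7 (adjusted p 0.0393 to 0.0688), -0.78 to -0.56 for Id2 (0.0126 to 0.158), -0.10 to 0.033 for Bmpr1a and -0.012 to 0.039 for Bmpr2. Bmp1, Id3 and Smad6 kept their direction and stayed without a call in every setting that tested them. No paired analysis was possible because the wt line shares no replicate number with a T120D line. Depth limits Smad6 and Grem1 most.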
